A study of Mus musculus with 12 samples.

Results

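Hair follicle stem cells in second telogen, the second resting phase of the mouse hair cycle, were compared with and without the forkhead transcription factor Foxc1. The wild-type group (WT) and the conditional knockout group (cKO) each held 2 libraries from Black Swiss mice, 1 from a male at postnatal day 42 and 1 from a female at postnatal day 46. Per the labels, the cKO mice were FOXC1-K14Cre-cKO. K14Cre is driven by the keratin 14 promoter, which is active in basal keratinocytes of the whole skin epithelium, so Cre activity is not limited to stem cells. The tables name both groups with CD34, a surface marker of mouse bulge stem cells, and the labels do not describe the sort gates. These are 4 of the 12 libraries of the series. All genes with a usable status in the authors' deposited table of the comparison were taken, 23729 of 23735 gene rows. The 6 left out included the keratins Krt15 and Krt5. The authors tested 13551 of the rows with Cuffdiff and left 10178 untested, of which 5541 were listed at 0 in both groups.

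Each gene had 1 pooled level per group, in FPKM (fragments per kilobase of transcript, scaled to the fragments of the library), so no value per library can be given and no library could be left out. The FPKM values, folds and q-values below are those of the authors' deposited tables. A gene was called higher or lower where the deposited q, Cuffdiff's p adjusted by Benjamini-Hochberg over all tested genes, was below 0.05. The standard error (SE) given beside a fold is that of its log2 value and is approximate, being derived from the deposited statistic. With 2 mice per group of different sex and age, p-values speak only for these libraries. They also depend on the fit: the authors' joint table of all groups gave other q-values for the same libraries. In bulk samples, fewer cells of a type and less RNA per cell cannot be told apart.

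The bulge is the lower end of the permanent hair follicle and holds its stem cells. In telogen these cells rest, and they divide briefly when a new hair starts to grow. BMP signals, secreted WNT inhibitors and fibroblast growth factor 18 are known to hold them at rest, and Foxc1 is known as a transcription factor that these cells express once they have been activated.

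Foxc1 (chr13:31898515-31902504 in build mm9) had 26.5 FPKM in WT cells against 1.59 in cKO cells and was called lower (16.6-fold, SE 0.38), in the direction of the labels. Bulge markers were present in both groups: the transcription factor gene Lhx2 had 217 FPKM in WT cells against 143 in cKO cells, and the integrin gene Itga6 had 71.8 and 71.4 FPKM. Cd34, the marker in the names of both groups, had 848 and 385 FPKM and was not called (q = 0.120). Krt15 and Krt5, keratins of these cells, carry a status that marks too much data and give no check. Genes that define other cells were at or near 0. The fibroblast receptor gene Pdgfra had 0.170 and 0.0911 FPKM in WT and cKO cells, the leukocyte gene Ptprc 0.264 and 0.211 FPKM, the endothelial gene Cdh5 0.0242 and 0.0233 FPKM and the Schwann cell gene Sox10 0.255 and 0.277 FPKM. The summed level of the fibroblast and dermal papilla list was 345 FPKM in WT cells against 315 in cKO cells, and that of the immune list was 79.3 FPKM in WT cells against 84.3 in cKO cells. Of 10, 9, 10 and 7 tested fibroblast, endothelial, immune and melanocyte genes 1 was called in each list: Col1a1 and Flt1 higher, Cd68 and Mitf lower. The deposited tables give no counts, so depth is unknown.

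In all, 897 genes were called: in cKO cells 508 rose and 389 fell. As the background for the counts below, 6.62% of tested genes were called in either direction, 3.75% higher and 2.87% lower. The median fold was 2.91 among the higher genes and 2.28 among the lower genes, and 175 higher and 70 lower genes differed at least 4-fold. Many of the higher genes started from very little, with 174 of them under 1 FPKM in WT cells, and 84 of the lower genes ended under 1 FPKM in cKO cells. Across all tested genes the median log2((FPKM + 1) ratio) was 0.00040, which scaling of the libraries can hold near 0, so it does not show that a shift is absent. It was -0.05 for genes with a mean level of 1 to 10 FPKM, 0.16 from 100 to 1000 FPKM and 0.19 above 1000 FPKM. The most abundant genes were mostly not called: Apoe, a lipid carrier, had 9908 FPKM in WT cells against 8950.2 in cKO cells, and Tpt1, a translation-linked protein, had 7618 and 7406 FPKM.

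**Figure D1:**
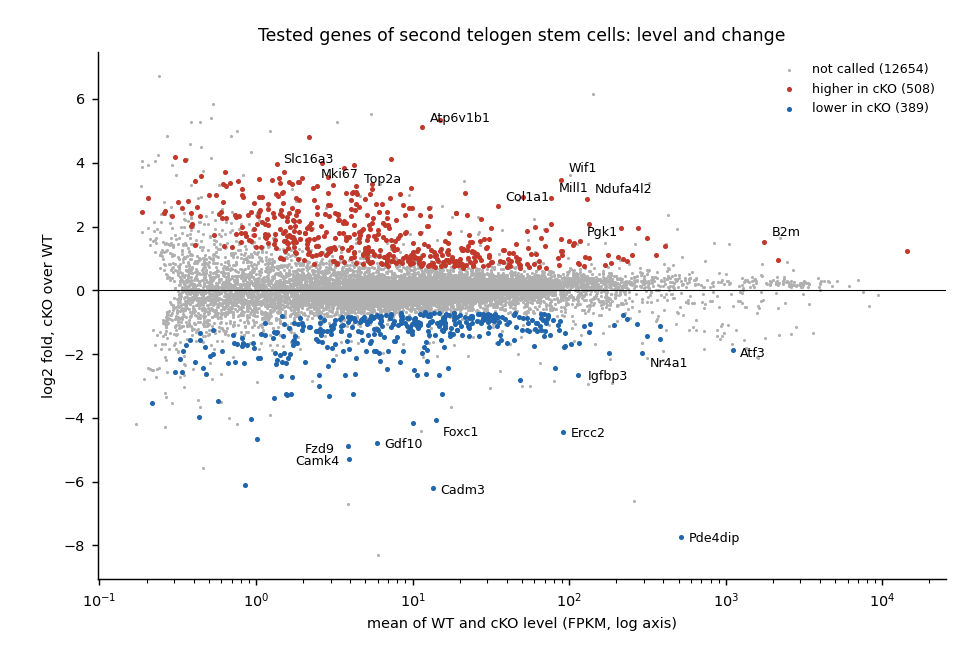
Change against level for the tested genes with a finite log2 fold, 1 point per gene; the x axis is the mean FPKM of both groups (log axis) and the y axis the log2 fold of cKO over WT. Red points were called higher (508 genes in all), blue points lower (389) and grey points were not called; Pde4dip, Cadm3 and Camk4 lie far below 0, Wif1 and Atp6v1b1 far above.

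Cell division genes had the highest share of called members among the lists with at least 10 tested genes. Of 40 tested genes of mitosis and the kinetochore, the structure by which chromosomes attach to the spindle, 37 rose and 0 fell, and their median log2((FPKM + 1) ratio) was 1.69. Top2a, the enzyme that untangles chromosomes, had 1.92 FPKM in WT cells against 17.6 in cKO cells and rose 9.21-fold (SE 0.40). Cdk1, the kinase that starts mitosis, rose 9.10-fold, from 1.09 to 9.95 FPKM (SE 0.46). Its cyclins Ccnb1 and Ccnb2 rose 6.45-fold and 8.07-fold, to 10.98 and 9.52 FPKM. Birc5, the survivin subunit of the chromosomal passenger complex, rose 8.13-fold, from 1.83 to 14.9 FPKM, and Anln, which acts in the cleavage furrow, rose 6.34-fold, from 2.38 to 15.1 FPKM. The 3 members not called had larger values in cKO cells too: Cdc20 (2.11 and 16.9 FPKM, q = 0.211), Kif20a (0.803 and 4.82 FPKM, q = 0.466) and Ttk (3.06 and 4.42 FPKM, q = 0.446).

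Of 32 tested DNA replication genes 24 rose and 0 fell, with a median log2((FPKM + 1) ratio) of 0.99. Among members of the MCM helicase, which opens DNA at replication origins, Mcm5 had 2.87 FPKM in WT cells against 17.1 in cKO cells (5.95-fold higher, SE 0.37), Mcm3 rose 5.10-fold and Mcm2 3.51-fold. Uhrf1, which guides the copying of DNA methylation, rose 5.95-fold, from 2.72 to 16.2 FPKM, and the thymidine kinase gene Tk1 rose 4.05-fold, from 4.997 to 20.2 FPKM. Pcna, the sliding clamp of the replication fork, was already at 105 FPKM in WT cells, had 161 in cKO cells and was not called (q = 0.120). Of 13 histone genes that could be tested, 5 rose and 0 fell, among them the variant histones H2afx (2.17-fold) and H2afz (1.80-fold, from 131 to 237 FPKM).

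Regulators of the cycle went both ways: of 28 tested, 8 rose and 4 fell. Cyclin D1 (Ccnd1), which couples growth signals to the cycle, had 30.9 FPKM in WT cells against 78.2 in cKO cells (2.53-fold higher, SE 0.33). The S phase activator E2f1 rose 5.71-fold, from 1.27 to 7.26 FPKM, and Foxm1, a forkhead activator of mitotic genes, rose 5.21-fold, from 0.791 to 4.12 FPKM. The inhibitors of cyclin-dependent kinases Cdkn1a and Cdkn1c fell 2.08-fold and 4.53-fold, from 185 to 88.9 FPKM and from 5.12 to 1.13 FPKM. The antiproliferative gene Btg2 fell 2.71-fold, from 461 to 170.3 FPKM. Myc, an activator of growth, also fell, 2.02-fold, from 95.1 to 46.98 FPKM.

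Bases before the starts of 4 of these genes are shown because mitotic promoters are known for 2 short motifs: CCAAT, which the factor NF-Y binds, and TTTGAA, the core of the cell cycle homology region. Each window is the 150 bases before the RefSeq start (GRCm38.p6), 5' to 3' on the strand of the gene, with both motifs in capitals on either strand (reverse complements ATTGG and TTCAAA). The windows lie at chr11:99024190-99024339 (minus strand) for Top2a, chr10:69352913-69353062 (minus strand) for Cdk1, chr13:100786487-100786636 (minus strand) for Ccnb1 and chr9:70421555-70421704 (minus strand) for Ccnb2.
Top2a: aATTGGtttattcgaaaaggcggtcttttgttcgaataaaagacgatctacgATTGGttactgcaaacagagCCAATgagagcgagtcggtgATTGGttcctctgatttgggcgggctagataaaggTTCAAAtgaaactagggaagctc
Cdk1: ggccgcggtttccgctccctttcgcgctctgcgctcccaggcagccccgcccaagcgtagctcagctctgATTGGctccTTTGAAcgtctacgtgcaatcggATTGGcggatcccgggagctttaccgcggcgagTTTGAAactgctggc
Ccnb1: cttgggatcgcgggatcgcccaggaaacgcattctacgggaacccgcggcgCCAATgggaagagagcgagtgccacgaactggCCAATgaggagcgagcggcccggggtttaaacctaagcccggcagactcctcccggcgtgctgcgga
Ccnb2: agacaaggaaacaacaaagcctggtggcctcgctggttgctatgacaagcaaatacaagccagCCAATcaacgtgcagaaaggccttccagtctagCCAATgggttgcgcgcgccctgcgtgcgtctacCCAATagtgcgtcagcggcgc
In the 250 bases before a start, CCAAT was found for 26 of 34 mitosis genes (76.5%) and 17 of 27 replication genes (63.0%) of the RefSeq promoter table, against 37.5% of all its 27025 genes. It was found for 16 of 27 interferon and antigen presentation genes (59.3%) too. TTTGAA was found for 10 of 34 mitosis genes (29.4%) and 3 of 27 replication genes (11.1%) against 18.3%. The 95% Wilson interval of the mitosis share (16.8 to 46.2%) holds this share of all genes, which include genes not tested here. Among the 10556 tested genes with a window, 77.9% of those tested, the shares were 12.8% for TTTGAA and 40.1% for CCAAT. The interval of the mitosis share for TTTGAA lies above 12.8% but holds 18.3%. Its place thus depends on the background, and no list was tested. GGCGGGAA, the E2F-type motif, was found for 0 of 34 mitosis and 4 of 27 replication genes (14.8%). Its share was 2.13% of all genes and 3.98% of tested genes with a window. A gene with several starts was counted if any window held the letters on either strand, and a match is a description of letters, not a bound site.

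Many genes of glucose breakdown and of the response to low oxygen also rose. Hypoxia-inducible factors are known to raise these genes when oxygen is low. Of 28 tested genes 15 rose and 1 fell, with a median log2((FPKM + 1) ratio) of 0.88. Slc16a3, the lactate exporter (chr11:120809798-120820314 in mm9), had 0.482 FPKM in WT cells against 6.86 in cKO cells and rose 14.2-fold (SE 0.67). Vegfa, the vascular growth factor, rose 3.498-fold, from 3.998 to 13.99 FPKM, and Pfkfb3, which makes an activator of phosphofructokinase, rose 3.47-fold, from 1.53 to 5.30 FPKM. The carbonic anhydrases Car12 and Car9, which handle acid at the cell surface, rose 3.29-fold and 4.24-fold, from 10.6 to 35.02 FPKM and from 0.389 to 1.65 FPKM.

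Along the glycolytic chain, Pgk1 rose from 60.03 to 174 FPKM (2.89-fold, SE 0.32), Pfkl from 11.95 to 34.3 FPKM (2.87-fold), Eno1 from 52.9 to 124 FPKM (2.33-fold) and Ldha from 229 to 492 FPKM (2.15-fold). Pgam1 rose 2.08-fold and Tpi1 1.89-fold. Gapdh, often used as a constant reference gene, had 149 FPKM in WT cells against 293 in cKO cells and rose 1.96-fold. Egln3, an oxygen sensor that low oxygen induces, rose 2.47-fold, from 12.01 to 29.7 FPKM, and the mitophagy gene Bnip3 rose 2.40-fold. Ndufa4l2, a mitochondrial protein known as a hypoxia target and no member of the list, had 31.4 FPKM in WT cells against 229 in cKO cells (7.30-fold higher, SE 0.53). Ndrg1, also known to be induced by low oxygen, fell 1.94-fold, from 115 to 59.4 FPKM. The main glucose importer gene Slc2a1 had 73.9 and 64.8 FPKM (q = 0.892), Hif1a had 35.6 and 27.97 FPKM (q = 0.609) and Pkm had 339 and 535 FPKM (q = 0.392) in WT and cKO cells.

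Windows before 4 of these starts are shown because they hold ACGTG, the core that hypoxia-inducible factors are known to bind; this motif was chosen after the values were seen. The 150 bases before the RefSeq start (GRCm38.p6) lie at chr11:120948917-120949066 (plus strand) for Slc16a3, chrX:106186950-106187099 (plus strand) for Pgk1, chr7:138909507-138909656 (minus strand) for Bnip3 and chr7:46845654-46845803 (plus strand) for the first of the listed starts of Ldha. Capitals mark ACGTG or its reverse complement CACGT, and CACGTG holds both.
Slc16a3: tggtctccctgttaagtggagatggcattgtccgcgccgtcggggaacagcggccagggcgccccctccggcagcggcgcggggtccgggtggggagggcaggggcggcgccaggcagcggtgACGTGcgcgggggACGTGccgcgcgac
Pgk1: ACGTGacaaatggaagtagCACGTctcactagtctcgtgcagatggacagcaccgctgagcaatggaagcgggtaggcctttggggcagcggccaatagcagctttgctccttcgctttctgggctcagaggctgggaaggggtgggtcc
Bnip3: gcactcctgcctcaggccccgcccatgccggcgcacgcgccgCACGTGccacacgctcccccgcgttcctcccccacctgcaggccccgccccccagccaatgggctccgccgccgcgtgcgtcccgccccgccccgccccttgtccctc
Ldha: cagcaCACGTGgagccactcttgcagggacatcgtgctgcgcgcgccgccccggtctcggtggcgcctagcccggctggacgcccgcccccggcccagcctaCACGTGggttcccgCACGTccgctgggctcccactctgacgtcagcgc
In the 250 bases before a start, ACGTG was found for 16 of 27 genes of the list (59.3%). Its share was 18.5% of all genes in the promoter table and 24.8% of the tested genes with a window. The shares in the other lists searched were 36.0% of immediate early, 32.4% of mitosis, 22.2% of replication and 14.8% of antigen presentation genes. In the 100 bases before a start, the share of the glycolysis and hypoxia list was 33.3%. There it was 12.0% of immediate early, 17.6% of mitosis, 14.8% of replication and 14.8% of antigen presentation genes. That window held ACGTG for 9.28% of all genes in the promoter table and 12.7% of tested genes with a window.

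**Figure D2:**
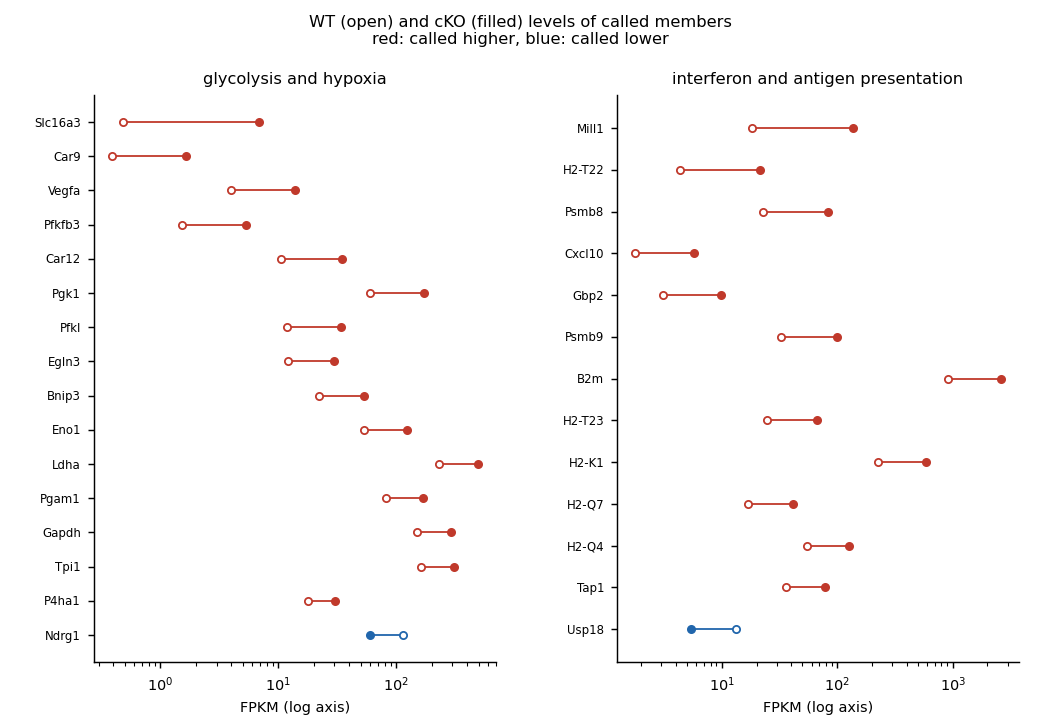
FPKM in WT (open circles) and cKO cells (filled circles) of the called members of the glycolysis and hypoxia list (16 genes) and of the interferon and antigen presentation list (13 genes), on log axes, 1 pooled value per group and gene. Red marks genes called higher and blue genes called lower; Slc16a3 goes from 0.482 to 6.86 FPKM and B2m from 909 to 2619 FPKM.

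Several genes that present peptides to killer T cells rose as well. Of 33 tested interferon and antigen presentation genes 12 rose and 1 fell, with a median log2((FPKM + 1) ratio) of 0.53. B2m, the light chain of class I molecules, had 909 FPKM in WT cells against 2619 in cKO cells (2.88-fold higher, SE 0.45), and the class I heavy chain H2-K1 had 227 and 594 FPKM (2.62-fold, SE 0.38). The immunoproteasome subunits Psmb8 and Psmb9, which cut peptides for loading, rose 3.66-fold and 3.09-fold, from 22.9 to 84.04 FPKM and from 32.3 to 99.9 FPKM. The peptide transporter Tap1 rose 2.20-fold, from 35.8 to 78.7 FPKM. Mill1, a class I-like gene, rose 7.45-fold, from 18.2 to 136 FPKM (SE 0.34). H2-K1, H2-Q4, H2-Q7, H2-T22 and H2-T23 share near-identical stretches, so their separate values are uncertain. Among interferon-induced genes, Gbp2 and the chemokine gene Cxcl10 rose 3.15-fold and 3.22-fold, and the protease gene Usp18 fell 2.43-fold, from 13.3 to 5.47 FPKM. The class II chain Cd74 had 59.6 and 70.6 FPKM (q = 0.954) and the Langerhans cell gene Cd207 had 2.76 and 2.21 FPKM in WT and cKO cells.

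Keratinocyte defence and differentiation genes had more calls upward than downward. Of 25 tested genes of activated keratinocytes and defence 4 rose and 0 fell, among them the beta-defensin gene Defb6 (3.13-fold, from 151 to 473 FPKM) and the stress keratin Krt16 (2.89-fold, from 8.25 to 23.9 FPKM). Of 35 tested epidermal differentiation genes 5 rose and 1 fell. Sprr1b, a precursor of the cornified envelope, rose 9.96-fold, from 0.565 to 5.63 FPKM, Krt80 fell 2.46-fold, from 192 to 78.04 FPKM, and the abundant Krt10 was not called (1402 and 1966 FPKM, q = 0.891). Krt79, a keratin of the upper follicle and sebaceous duct, rose 4.24-fold, from 51.4 to 218 FPKM (SE 0.37). Of 23 tested sebaceous and upper follicle genes 4 rose and 2 fell.

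Immediate early genes, which respond to signals and to tissue dissociation within minutes, were lower in cKO cells. Of 31 tested genes 0 rose and 14 fell, all 31 had smaller values in cKO cells, and the median log2((FPKM + 1) ratio) was -1.10. Nr4a1, an orphan nuclear receptor, had 466 FPKM in WT cells against 120.2 in cKO cells (3.87-fold lower, SE 0.38), and the stress factor Atf3 had 1748 and 478 FPKM (3.66-fold lower, SE 0.69). Rhob, a small GTPase, fell 3.44-fold, from 145 to 42.1 FPKM, Ier2 fell 2.87-fold, from 562 to 195 FPKM, and Egr3 fell 2.64-fold, from 18.5 to 7.01 FPKM. The most abundant members were not called: Fos had 3872 FPKM in WT cells against 1744 in cKO cells (q = 0.692) and Jun had 1645 and 695 FPKM (q = 0.445). Outside the list, Dusp6, a phosphatase of ERK, fell 2.35-fold, from 70.3 to 29.9 FPKM, and Hbegf, an EGF receptor ligand, fell 2.20-fold, from 22.1 to 10.05 FPKM. Of 25 tested heat shock and unfolded protein genes 0 rose and 3 fell, and the inducible Hspa1b was not called (179.8 and 162 FPKM, q = 0.961).

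**Figure D3:**
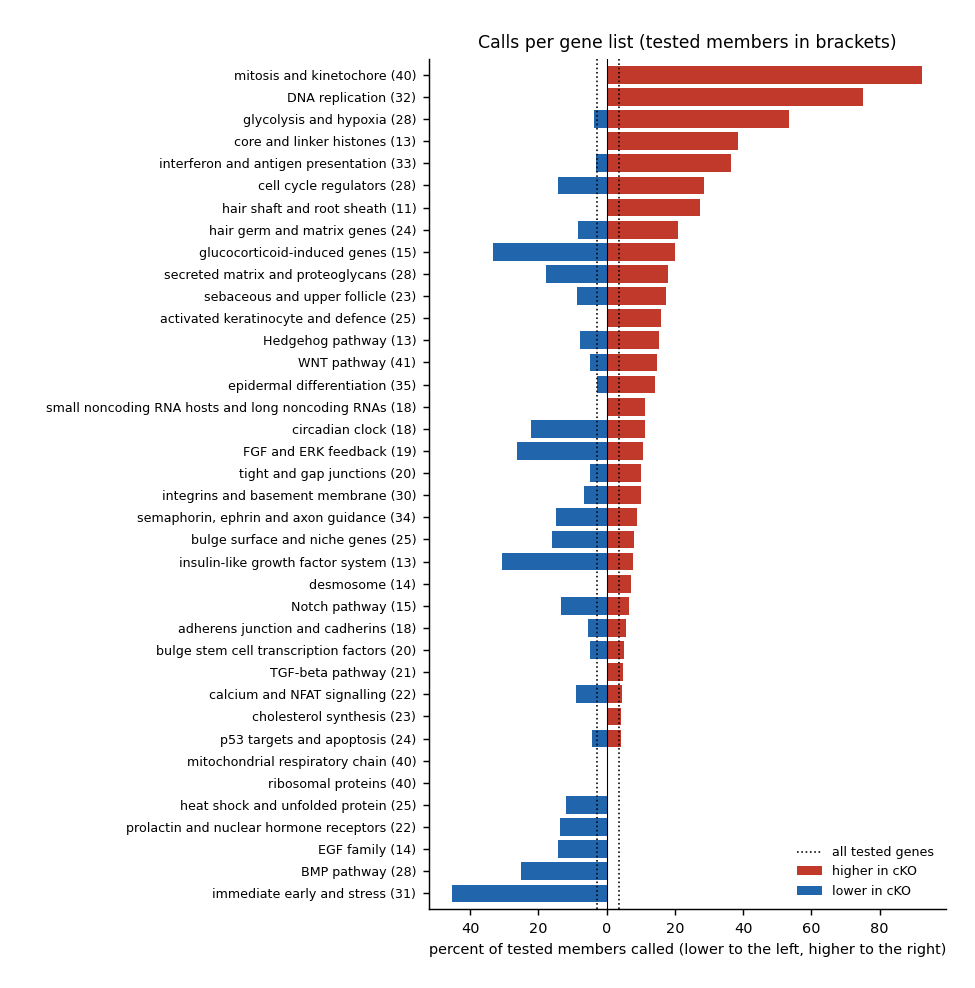
Percent of the tested members of each gene list that were called higher (to the right) or lower (to the left) in cKO cells. The lines mark the shares of all tested genes, 3.75% higher and 2.87% lower; the mitosis and replication lists reach farthest to the right and the immediate early list farthest to the left.

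Of 18 tested clock genes 2 rose and 4 fell. The labels do not give the time of day of the sorts, so its part in the clock and glucocorticoid-induced genes was not tested. Npas2, a partner of the clock activator Arntl, fell 5.51-fold, from 11.7 to 2.12 FPKM (SE 0.39), and Per1 fell 1.91-fold, while the repressor Bhlhe40 rose 2.04-fold, from 11.7 to 23.9 FPKM. Arntl itself was not called (27.4 and 18.02 FPKM, q = 0.117), although it was called lower in the joint table (q = 0.0144). Of 15 tested glucocorticoid-induced genes 3 rose and 5 fell; Zbtb16 and Klf9 fell 2.33-fold and 2.16-fold, and Fkbp5, the co-chaperone of the receptor, rose 2.46-fold, from 1.70 to 4.18 FPKM. In the list of prolactin signalling and nuclear receptors (22 tested) 0 rose and 3 fell, among them the cytokine feedback gene Socs2, 9.55-fold, from 3.05 to 0.319 FPKM (SE 0.77).

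BMP pathway genes were lower where they were called: of 28 tested, 0 rose and 7 fell, with a list median of -0.13. Among ligands, Gdf10 had 11.4 FPKM in WT cells against 0.414 in cKO cells (27.6-fold lower, SE 0.59), and Bmp6 fell 3.09-fold, from 4.003 to 1.30 FPKM. The signal transducer Smad9 fell 2.34-fold, from 7.94 to 3.40 FPKM. The target genes Id2 and Id3, inhibitors of differentiation, fell 2.07-fold and 2.17-fold, from 368 to 178 FPKM and from 522 to 240.3 FPKM, and Id1 fell 1.70-fold. The antagonist noggin (Nog) fell too, 1.78-fold, from 45.1 to 25.4 FPKM. The receptor gene Bmpr1a was not called (32.5 and 29.2 FPKM, q = 0.924). Of 21 tested TGF-beta pathway genes 1 was called, the activin subunit Inhbb, 1.99-fold higher.

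In the insulin-like growth factor system 1 rose and 4 fell of 13 tested genes. Igfbp5, a binding protein of these factors (chr1:72904639-72921439 in mm9), had 27.8 FPKM in WT cells against 2.91 in cKO cells (9.55-fold lower, SE 0.37). Igfbp3 had 198 and 31.4 FPKM (6.31-fold lower, SE 0.34), Igfbp6 fell 2.19-fold and the receptor adaptor Irs2 2.03-fold. Pappa, a protease that cuts such binding proteins, rose 1.79-fold, from 1.67 to 2.99 FPKM. Igfbp4 (78.6 and 78.3 FPKM) and Igfbp7 (511 and 657 FPKM) were not called.

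WNT genes changed at several levels of the pathway, where 6 rose and 2 fell of 41 tested. Among ligands, Wnt6 rose 5.12-fold, from 1.09 to 5.59 FPKM (SE 0.48), Wnt10a rose 1.86-fold, from 12.9 to 23.96 FPKM, and Wnt7b 1.75-fold. Porcn, which attaches the lipid that WNT proteins need for secretion, rose 1.92-fold, from 11.6 to 22.3 FPKM. Lef1, a nuclear effector, rose 4.03-fold, from 1.04 to 4.19 FPKM (SE 0.58). Secreted inhibitors went opposite ways: Wif1 had 14.7 FPKM in WT cells against 163 in cKO cells (11.1-fold higher, SE 0.33), and Sfrp1 had 145 and 43.5 FPKM (3.34-fold lower, SE 0.37). The receptor gene Fzd9 fell 29.3-fold, from 7.45 to 0.254 FPKM. The pathway target Axin2 was not called (10.6 and 14.5 FPKM, q = 0.397).

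Of 19 tested FGF and ERK feedback genes 2 rose and 5 fell. Fgf18 fell 2.54-fold, from 43.9 to 17.2 FPKM (SE 0.36), and Fgf1 fell 2.28-fold, from 24.5 to 10.7 FPKM. Among 13 tested Hedgehog genes the effector Gli1 rose 1.62-fold, from 16.1 to 26.1 FPKM, and the inhibitor Hhip fell 4.81-fold, from 1.38 to 0.287 FPKM. Among 15 tested Notch genes the target Hes1 fell 1.87-fold, Numb fell 1.76-fold, and the feedback gene Nrarp rose 1.74-fold.

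Of 20 tested transcription factors of bulge stem cells 1 rose and 1 fell, while 3 were called higher and 4 lower in the joint table. Foxi3 rose 5.98-fold, from 0.487 to 2.91 FPKM, and Foxp1 fell 1.77-fold, from 24.4 to 13.8 FPKM. Tbx1 (202 and 139 FPKM, q = 0.272) and Hopx (300.4 and 334 FPKM, q = 0.934) were not called. Of 25 tested surface and niche genes 2 rose and 4 fell, a larger share than the 6.62% of all genes. Itgb6, an integrin subunit that activates latent TGF-beta, fell 2.35-fold, from 26.8 to 11.4 FPKM, and the matrix protein gene Aspn rose 2.64-fold, from 38.5 to 102 FPKM. Cd34 had 848 FPKM in WT cells against 385 in cKO cells and was not called (q = 0.120). In the hair germ and matrix list 5 rose and 2 fell of 24 tested, with Dlx2 4.01-fold lower.

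Matrix, adhesion and guidance genes changed one by one. Cadm3, an adhesion molecule of the immunoglobulin superfamily (chr1:175264385-175297826 in mm9), had 26.6 FPKM in WT cells against 0.360 in cKO cells, 73.8-fold lower (SE 0.53). Of 28 tested secreted matrix genes 5 rose and 5 fell. Bgn, a small leucine-rich proteoglycan, had 9.57 FPKM in WT cells against 45.2 in cKO cells (4.72-fold higher, SE 0.32). Pcolce2, which promotes collagen processing, fell 17.9-fold, from 19.2 to 1.07 FPKM (SE 0.49), and the gelatinase gene Mmp2 fell 3.36-fold, from 91.99 to 27.4 FPKM. Col1a1, a type I collagen chain that fibroblasts make in bulk, rose 6.22-fold, from 9.72 to 60.5 FPKM, while its partner chain Col1a2 was not called (11.9 and 10.4 FPKM) and the fibroblast genes Dcn (0.294 and 0.237 FPKM) and Lum (0.0251 and 0.0387 FPKM) were near 0. Of 34 tested guidance genes 3 rose and 5 fell; the receptor gene Plxna2 fell 2.95-fold, from 66.8 to 22.7 FPKM, and Sema3e fell 2.72-fold, from 38.6 to 14.2 FPKM. Of 14 tested desmosome genes 1 was called, Dsg1b, 2.20-fold higher, and the abundant Dsp was not (471 and 439 FPKM).

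Of 22 tested calcium and NFAT genes 1 rose and 2 fell. Camk4, a calcium-dependent kinase, had 7.70 FPKM in WT cells against 0.196 in cKO cells (39.3-fold lower, SE 0.52), and Atp2a3, a calcium pump of the endoplasmic reticulum, fell 10.04-fold, from 5.36 to 0.534 FPKM. The entry channel Orai1 rose 1.97-fold. Nfatc1, a calcium-dependent factor known to hold bulge cells at rest, was not called (72.7 and 76.9 FPKM, q = 0.984).

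Further large changes lay outside the lists. Atp6v1b1, a proton pump subunit, had 0.652 FPKM in WT cells against 22.5 in cKO cells (34.5-fold higher, SE 0.55), and the secreted protease Htra1 rose 3.88-fold, from 87.3 to 339 FPKM. Il31ra, a cytokine receptor linked to itch, fell 5.43-fold, from 137 to 25.2 FPKM (SE 0.39), and Cyp26b1, which breaks down retinoic acid, fell 6.12-fold, from 21.03 to 3.44 FPKM (SE 0.36). Nrep and Nptx1 fell 6.97-fold and 6.27-fold, to 12.2 and 2.93 FPKM.

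Some of the widest gaps lay at genes whose level also swung widely in the joint table of all 7 groups. Rmrp and Rpph1, the RNA parts of ribonucleases MRP and P, rose 7.63-fold and 8.35-fold, from 11.8 to 89.96 FPKM and from 4.63 to 38.7 FPKM, and had 6472 and 2629 FPKM in the single first telogen library. That library also held RNA of other cells, with 173.6 FPKM of the fibroblast gene Pdgfra. Mir6236 rose 2.37-fold, from 8559.9 to 20291 FPKM. Pde4dip fell 212-fold, from 1033 to 4.87 FPKM; in the joint table it had 1081 FPKM in WT cells, 496 in the second telogen inducible knockout and 3.44 to 5.97 in the other groups. The repair helicase gene Ercc2 fell 21.7-fold, from 176 to 8.12 FPKM, and the 5 groups outside this comparison had 46.2 to 483 FPKM. Snord37, Mir7014 and Mir20a were listed at 0 in one group, so no fold is given. Whether 1 library set these levels cannot be read from pooled values.

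Of 40 tested ribosomal protein genes 0 were called by Cuffdiff in this table or in the joint table, and 0 had an unadjusted p below 0.05; their median log2((FPKM + 1) ratio) was 0.22, with larger values in cKO cells for all 40. Of 40 tested respiratory chain genes 0 were called by Cuffdiff, 1 was called in the joint table and 1 had an unadjusted p below 0.05, with a median of 0.28. Cox4i1, a subunit of cytochrome oxidase, had 569 FPKM in WT cells against 711 in cKO cells.

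Among called genes that follow each other on a chromosome, 50 pairs shared a direction and 23 did not, given as a description. Of the former, 18 lay within 10000 bases of each other without overlap (mm9). Wnt6 and Wnt10a on chromosome 1 are 6699 bases apart. Col4a4 and Col4a3, basement membrane collagens of chromosome 1, fell 16.4-fold and 15.6-fold, from 1.76 to 0.107 FPKM and from 0.814 to 0.0523 FPKM. Tap1 lies 225 bases from Psmb9 and 969 bases from Psmb8. Fam71a lies 5479 bases from Atf3 and fell 6.29-fold, from 25.6 to 4.07 FPKM.

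The comparison was then set beside the anagen (growth phase) knockout of the series. There, 2 libraries of FOXC1-Sox9CreER-iKO males (iKO) and 2 of heterozygous males (Het), of mixed Black Swiss and C57BL/6 background and 30 days old, had been taken after tamoxifen, which also turned on a YFP reporter. Cre driver, strain, age, sex and control genotype therefore differ along with the stage, and their parts cannot be told apart. For each of 12939 genes the anagen log2 fold was subtracted from the telogen log2 fold and the difference tested with a two-sided z test with Benjamini-Hochberg adjustment. The log2 folds differed for 85 genes (0.657%), 50 of them higher and 35 lower in telogen. Of the mitosis and replication lists 0 and 0 genes differed. With 0.657% of all genes differing, 0 in lists of this size does not show that the folds were equal. Top2a, with a log2 fold of 3.20 in telogen and 1.87 in anagen (adjusted p of the difference 0.363), had 15.1 and 54.99 FPKM in anagen Het and iKO cells, in a table scaled separately.

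Of the WNT genes in this test 3 differed, all with the higher log2 fold in telogen (Wif1, Lef1 and Wnt7b). Of the secreted matrix genes in it 1 differed upward (Bgn) and 2 downward (Pcolce2 and Mmp2). Log2 folds in telogen and anagen were 3.47 and -0.30 for Wif1, 2.64 and -0.94 for Col1a1, 2.24 and -0.39 for Bgn and 2.01 and -0.77 for Lef1. Dpysl3 (1.96 and -0.76), Myoc (1.60 and -1.34), the adhesion molecule gene Mcam (2.36 and -0.08), C1qtnf1 (1.86 and -1.75), Mfap2 and Col14a1 also differed; these were named after their values were seen. So did Egln3 (1.31 and -0.33) of the hypoxia list and H2-T22 and H2-T23 of the antigen presentation list. On the other side, Ier2, Ier3, Egr2, Egr3 and Maff of the immediate early list differed, as did Dusp6 (-1.23 and 1.58), Hbegf (-1.13 and 1.16) and Mmp2 (-1.75 and 0.54). The chaperone gene Dnaja1 (-1.97 and 1.97) went opposite ways. Cadm3 (-6.21 and -2.97), Camk4 (-5.30 and -2.63) and Pcolce2 (-4.16 and -1.72) were called lower in both comparisons and had the lower fold in telogen. Of the 85 genes, 69 had also been called in telogen, so the named ones were in part chosen for a large telogen change.

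**Figure D4:**
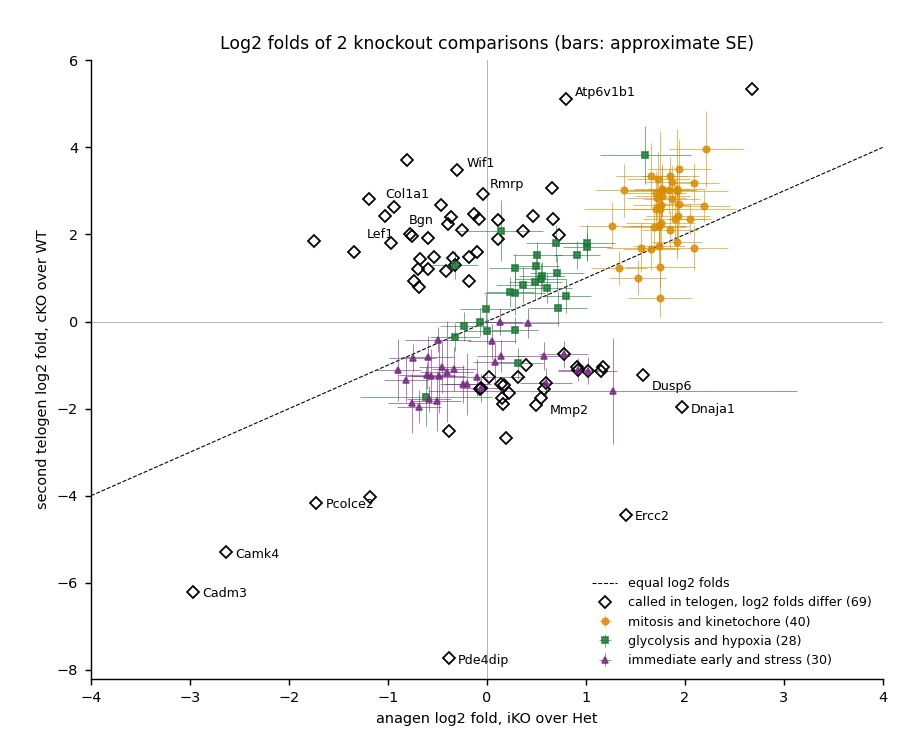
Log2 fold of cKO over WT in second telogen (y axis) against the log2 fold of iKO over Het in anagen (x axis), with approximate SE bars, for members of 3 lists; diamonds are the 69 genes called in telogen whose log2 folds differed. Mitosis genes lie high on both axes, while Wif1 (3.47 and -0.30) and Col1a1 (2.64 and -0.94) are high on the telogen axis.

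Levels in the joint table, which was scaled apart from the 2-group table, place the cKO cells among all 7 groups. The further groups were 2 libraries of FOXC1-Sox9CreER-iKO males in second telogen (telogen iKO, mixed background, day 60, tamoxifen), and single libraries of Shh-heterozygous Agouti females (titled WT) in first telogen (about day 23) and in anagen II (about day 26). In first telogen and anagen II, the fibroblast gene Pdgfra had 173.6 and 50.3 FPKM, against 0.176 in telogen WT. The endothelial gene Pecam1 had 18.3 and 2.11 FPKM there, against 0.168 in telogen WT. Levels in these single libraries therefore cannot be read as those of stem cells alone. The telogen iKO and cKO cells share their WT control libraries, so their values are given side by side. Mki67, the proliferation marker, had 1.02 FPKM in telogen WT, 10.4 in cKO and 6.34 in telogen iKO cells, 9.42 in anagen Het and 33.9 in anagen iKO cells, 2.43 in first telogen and 28.7 in anagen II. Relative to telogen WT, the median log2((FPKM + 1) ratio) of the mitosis list was 1.72 in cKO, 1.27 in telogen iKO, 1.43 in anagen Het, 3.07 in anagen iKO and 3.29 in anagen II cells. It was 0.67 in first telogen cells.

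Relative to telogen WT, the median log2((FPKM + 1) ratio) of the glycolysis and hypoxia list was 0.88 in cKO, 0.65 in telogen iKO, 0.81 in anagen iKO and 0.29 in anagen Het cells. It was -0.21 in first telogen and 0.10 in anagen II cells. Slc16a3 had 0.501, 7.16 and 7.95 FPKM in telogen WT, cKO and iKO cells, against 1.11 in anagen Het and 3.36 in anagen iKO cells. In the same order of telogen WT, cKO and iKO cells, Pgk1 had 62.4, 181 and 178 FPKM and Ndufa4l2 32.6, 239 and 193 FPKM. Mill1 (18.96, 141 and 109.5 FPKM) and Krt79 (53.4, 227 and 216 FPKM) were also above telogen WT in both. These 5 genes were not called between cKO and telogen iKO cells in the authors' joint table, with q from 0.207 to 0.961.

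Other genes had different levels in the telogen knockouts, which differ in driver, strain, age and sex. In the order of telogen WT, cKO and iKO cells, Nr4a1 had 484, 125 and 885 FPKM and Atf3 1816, 498 and 2077 FPKM. The median log2((FPKM + 1) ratio) of the immediate early list to telogen WT was -1.09 in cKO, 0.26 in telogen iKO and -2.45 in anagen Het cells. It was -2.31 in anagen iKO, -0.24 in first telogen and -2.41 in anagen II cells. The BMP target Id3 had 542, 250.4 and 697 FPKM, and the WNT inhibitor Sfrp1 151, 45.2 and 149 FPKM. Cadm3 had 27.6, 0.375 and 23.3 FPKM and Cyp26b1 21.8, 3.58 and 17.96 FPKM. Psmb8 had 23.9, 87.6 and 33.7 FPKM and Col1a1 10.1, 62.9 and 4.45 FPKM. Each of these 8 genes was called between cKO and telogen iKO cells in the authors' joint table (q = 0.000444). Foxc1 itself had 1.66 FPKM in cKO and 3.17 in telogen iKO cells and was called lower in cKO cells (q = 0.00980).

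Of the 508 genes called higher, WT cells had the lowest level of the 7 groups for 277 and cKO cells the highest for 143. Of the 389 genes called lower, WT cells had the highest level for 152 and cKO cells the lowest for 113. These genes were chosen for a difference between WT and cKO cells, which by itself moves these groups toward such extremes. No share over all tested genes is given beside the counts, so they are descriptions and do not show where the cKO cells lie among the groups.

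**Figure D5:**
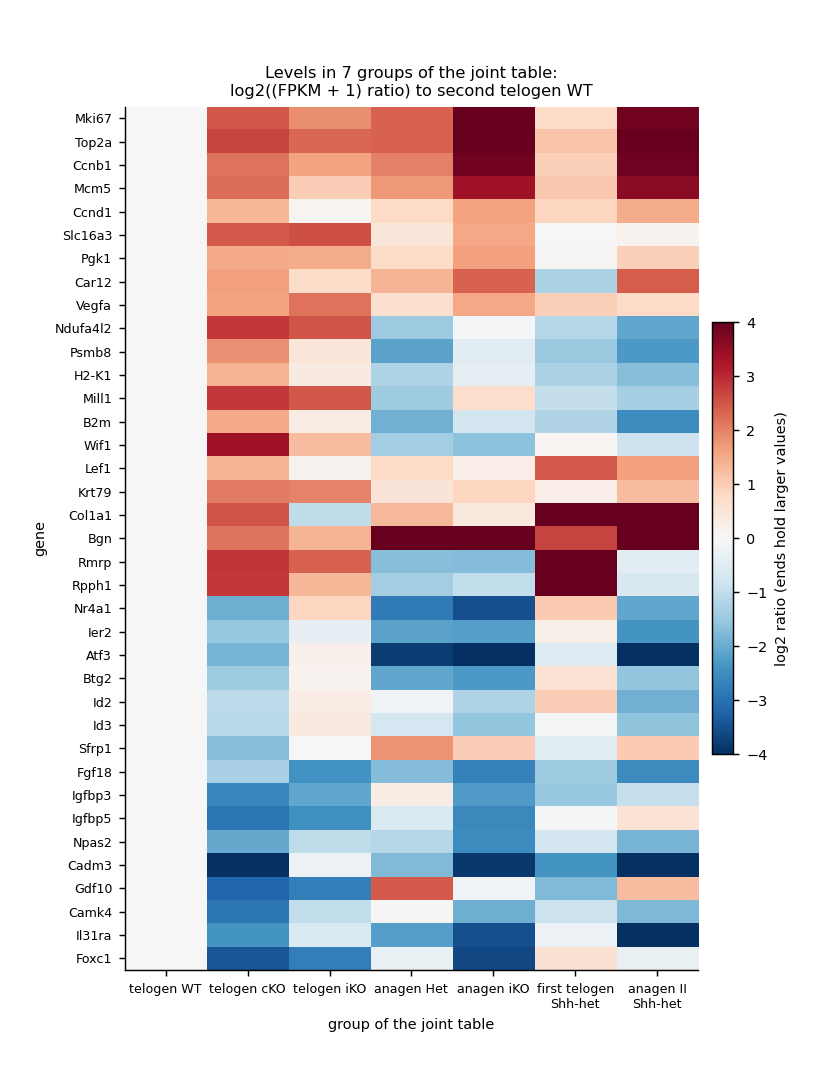
Levels of named genes in the 7 groups of the joint table, as log2((FPKM + 1) ratio) to second telogen WT cells (colour; red is higher, blue lower, and the ends of the scale hold larger values). Slc16a3 and Ndufa4l2 are red in both telogen knockouts, and Nr4a1 (125 and 885 FPKM) is blue in cKO cells and red in telogen iKO cells.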

How the data were processed

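RNA of sorted mouse hair follicle stem cells was measured by mRNA sequencing (TruSeq mRNA kit, per the labels' protocols) in 12 libraries of 7 groups, of which 4 form the comparison. TopHat, Cufflinks and Cuffdiff, with mouse build mm9, are named per the submitters' processing notes; versions and settings are not stated in the sources used here. The authors deposited FPKM as 1 pooled value per group and gene, with the log2 fold, a test statistic (a score), a p-value and a q-value, per the file headers. Depth and counting error are unknown. The smallest deposited p is 5e-05, and the deposited q equals a Benjamini-Hochberg adjustment over tested genes to within 5.25e-07.

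The authors' Cuffdiff test, called at q below 0.05, was the main test. The SE is the log2 fold divided by the statistic. The difference between telogen and anagen log2 folds was computed from these and checked on simulated data; genes whose p and statistic disagree (77 in the telogen table) were left out of it. List medians use a pseudocount of 1, which understates low genes. The members and the 46 gene lists were chosen with earlier results of these data known, so list counts are descriptions. Named genes are Foxc1, the 15 highest and 15 lowest called folds where neither group is under 1 FPKM, 6 called genes each way under it in one group, the 10 largest gains and losses in FPKM, the 10 most abundant genes, and up to 4 called and 3 uncalled members per list; other list members, neighbouring pairs and genes that differ from anagen were named after their values were seen. Results that rest on a few withheld genes are not reported here, although list counts include all members. Positions are mm9 spans of the deposited tables, and 215 rows hold several symbols. Promoter bases are RefSeq's (GRCm38.p6), matched by symbol. Motif shares over called genes are void because 76.6% of higher and 74.6% of lower genes had a window. Shares over tested genes, of which 77.9% had a window, are given only as a second background. Alternatives were the joint table, stricter thresholds, filters on low FPKM, other pseudocounts, a shorter promoter window and other forms of the difference test. Python 3.11.15, pandas 2.3.3, numpy 2.4.6 and scipy 1.17.1 were used.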

Additional observations from a re-analysis of the deposited data

Results flagged for a closer look

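The telogen and anagen log2 folds differed for 85 genes by the z test of the difference (Benjamini-Hochberg adjusted p below 0.05); the z values below are telogen minus anagen, in units of the SE of the difference. Stage, sex, age, strain, Cre driver and the genotype of the controls cannot be told apart here. All genes named below had also been called in telogen, so they were in part chosen for a large telogen change.

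Among genes with the higher log2 fold in telogen, the z value was 6.44 for Bgn of the secreted matrix list and 8.97 for Col1a1 of the fibroblast list. Genes named after their values were seen had 6.21 (Myoc), 6.03 (Dpysl3), 5.95 (C1qtnf1), 4.87 (Mcam), 4.16 (Col14a1) and 3.83 (Mfap2). The WNT genes had 8.34 (Wif1), 3.84 (Lef1) and 3.72 (Wnt7b). The keratins had 4.49 (Krt73) and 3.90 (Krt79), and the class I genes 4.24 (H2-T23) and 4.07 (H2-T22). Krt73 had a telogen log2 fold of 3.72 but a log2((FPKM + 1) ratio) of only 1.00. The RNA genes Rmrp and Rpph1 had 8.25 and 4.40. The others were Atp6v1b1 (6.78), Egln3 (4.12), Crip1 (3.93), BC100530 (3.87) and Hist1h2bc (3.66).

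Among genes with the lower log2 fold in telogen, signal-induced genes had z values of -7.01 (Dusp6), -6.10 (Ier3), -5.65 (Hbegf), -5.08 (Maff), -4.63 (Egr3), -3.85 (Egr2) and -3.75 (Ier2). Pde4dip, Dnaja1 and Ercc2 had -15.8, -12.5 and -8.31. The others were Mmp2 (-5.77), Cadm3 (-5.09), Enc1 (-4.89), Camk4 (-4.51) and Pcolce2 (-4.31).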

How the results depend on the processing

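No paired analysis was possible because the deposited columns are pooled per group and carry no value per library; for the same reason leaving out each replicate was not run. In the authors' joint table of 7 groups, 885 genes rose and 792 fell in cKO cells; these include all 508 and 389 called genes of the 2-group table. There, 25 immediate early genes were called lower in place of 14, 2 glycolysis and hypoxia genes and 2 antigen presentation genes were called lower in place of 1 each, and 133 genes differed from anagen in place of 85. Of 18 clock genes 5 were called higher and 7 lower there, and of 15 glucocorticoid-induced genes 4 higher and 9 lower. In the joint table, 23 named genes that were not called in the 2-group table were called, among them Arntl, Pcna (q = 0.0146), Cdc20 (q = 0.0387), Tbx1 (q = 0.0445) and Jun (q = 0.0489). At q below 0.01, 232 genes were called lower, 9 immediate early genes were lower, and 0 genes of the insulin-like growth factor system were higher. At that threshold the lower calls went from 3 to 0 for heat shock, 3 to 1 for prolactin and nuclear receptors and 5 to 3 for FGF genes, and the higher calls from 3 to 0 for guidance, 5 to 2 for hair germ and 5 to 3 for epidermal genes. The median log2 ratio of the mitosis list was 2.55 with a pseudocount of 0.1 and 0.83 with 5, that of the replication list 0.58 with 5, and that of the antigen presentation list 0.93 with 0.1. Where neither group was under 1 FPKM, 323 genes were called higher after readjusting p. With a normal p from the statistic, 345 were called higher and 224 lower. Of these, only 311 and 182 were among the 508 higher and 389 lower genes, so many calls depend on how p was made. With the larger of both standard errors 45 genes differed from anagen, and with the genes kept whose p and statistic disagree 129 did. No result reversed under the alternatives run, and the cause of these shifts was not tested. Pooled levels, unknown depth and 2 mice per group limit every value, and a single library that stands apart could not be seen.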
